A study of Homo sapiens with 8 samples.

Results

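The interleukin 1 family genes described here are 9: the ligands IL1A, IL1B, IL18 and IL33, the receptor chains IL1R1, IL1RAP and IL1RL1, the decoy receptor IL1R2 and the receptor antagonist IL1RN. They were taken by symbol from the 17709 named transcript clusters of the table (a transcript cluster is a group of probes that reports 1 gene). Each of the 9 had 1 cluster, so no choice between clusters was needed. Because these genes were picked with measured values of the comparison between BORA and EV tumours known, their differences are given as a description. Counts of members above 0, without overlap between groups or past a threshold of the fit are set beside the share of all clusters. Nothing is read from them.

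Total RNA from 8 xenografts was hybridised to Affymetrix expression arrays, 1 array per tumour. All tumours grew in nude mice from SK-OV-3, a human ovarian cancer line. In 4 of them the cells carried pIND_BORA, a vector for overexpression of BORA, and in 4 they carried pIND_EV, the empty vector. The labels give neither the age of the mice nor the number of animals or transfected pools behind each group, so the spread between arrays may be technical in part. Nude mice lack a thymus and mature T cells but keep macrophages, neutrophils and mast cells. Human probes can read mouse transcripts only where the sequences allow, and fewer cells of a type cannot be told apart from less RNA per cell in such bulk samples.

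IL1A and IL1B encode the interleukin 1 agonists, which bind IL1R1 and then recruit the accessory chain IL1RAP. The paired intracellular domains engage MYD88 and IRAK kinases, and NF-kB targets such as CXCL8 and IL6 are induced. IL1RN competes for IL1R1 without recruiting the accessory chain, and IL1R2 binds the ligands but lacks the intracellular signalling domain. IL1B and IL18 are made as precursors that caspase-1 cleaves within inflammasomes, whereas IL1A and IL33 act as alarmins released from damaged cells, IL33 through IL1RL1 (also called ST2) and IL1RAP. In squamous epithelia IL1RN is abundant in an intracellular form.

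Values are given as log2 signals. A cluster is called dim on an array where its signal is under the 95th percentile of that array's negative controls, which was between 7.62 and 8.24. The BORA transcript itself lay between 12.55 and 13.00 in BORA tumours and between 6.15 and 7.32 in EV tumours, as the labels state. The 7 measured SK-OV-3 markers (PAX8, EPCAM and MUC1 among them) exceeded the negative control percentile on all 8 arrays. EV replicate 1 stood apart from the rest: its correlations with other arrays over all clusters were 0.943 to 0.954, against 0.981 to 0.992 among the remaining 7. In it 12 of 14 measured squamous epithelial markers exceeded the percentile, against 1 or 2 in each other tumour. Each member's difference is therefore given for 8 arrays and for the 7 that remain when EV replicate 1 is left out. Of other genes the second value follows where that array moved the difference by over 1.5 times, turned its sign or changed a call.

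Among the ligands, IL1A exceeded the negative control percentile on all 8 arrays and IL1B on 7, with wide scatter in both groups. IL1A was at 10.08, 11.68, 11.93 and 11.04 in BORA replicates 1 to 4 and at 10.77, 10.21, 8.14 and 12.33 in EV replicates 1 to 4. IL1B was at 9.01, 11.24, 11.63 and 11.04 in BORA tumours and at 8.68, 10.73, 7.51 and 12.65 in EV tumours. For both genes EV replicate 4 was the highest and EV replicate 3 the lowest of all 8 arrays, so the EV range enclosed the BORA range. Within the BORA group, replicate 1 was the lowest and replicate 3 the highest for both.

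The mean log2 difference of IL1A, BORA minus EV, was 0.82 (SE 0.77) over 8 arrays and 0.96 (SE 0.77) without EV replicate 1. That of IL1B was 0.84 (SE 1.02) and 0.44 (SE 0.97). Both sizes moved with EV replicates 3 and 4. Without EV replicate 3, over 8 arrays, the differences were 0.08 and 0.05, and with EV replicate 1 left out as well they were -0.09 and -0.96. Without EV replicate 4 they were 1.48 and 1.76 over 8 arrays. SDs of IL1A were 0.82 in BORA and 1.73 in EV tumours, and those of IL1B 1.17 and 2.27 (n = 4 each).

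The start regions of IL1A and IL1B are shown because both genes varied together from tumour to tumour. They come from RefSeq (GRCh38.p14) and run from 250 bases before the annotated start to 50 bases after it. Of the 9 members 8 have an entry there, 17 entries in all, and the IL1A start shown is the first listed of 2. Capitals mark matches to TGANTCA, a core that AP-1 factors bind, and to TATAAA. Both strands were searched, and TGANTCA matches on both strands at the same place.
IL1A, chr2:112784444-112784743, minus strand: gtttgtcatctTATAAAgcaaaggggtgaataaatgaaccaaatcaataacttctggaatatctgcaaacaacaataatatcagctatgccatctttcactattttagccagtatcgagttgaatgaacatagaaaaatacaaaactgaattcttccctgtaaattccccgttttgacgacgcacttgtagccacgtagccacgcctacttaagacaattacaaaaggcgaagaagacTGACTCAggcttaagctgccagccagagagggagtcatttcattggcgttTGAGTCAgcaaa
IL1B, chr2:112836730-112837029, minus strand: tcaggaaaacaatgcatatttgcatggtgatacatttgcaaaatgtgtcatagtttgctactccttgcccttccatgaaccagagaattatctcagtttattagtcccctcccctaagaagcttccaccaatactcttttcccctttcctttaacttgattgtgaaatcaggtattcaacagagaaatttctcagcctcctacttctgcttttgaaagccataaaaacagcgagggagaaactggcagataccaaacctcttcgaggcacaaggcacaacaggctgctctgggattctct

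The IL1A window held TGANTCA at bases -12 and 39 relative to the start, as TGACTCA and TGAGTCA, and TATAAA at base -239. Relative to the second listed IL1A start TGANTCA lay at bases -105 and -55, and that window held no TATAAA. The IL1B window held neither motif. The NF-kB consensus GGGRNWYYCC (R is A or G, W is A or T, Y is C or T, N is any base) was also searched on both strands. It was in none of the 17 windows of the members. Looser forms of the site and sites outside the windows were not searched. Among 35116 RefSeq windows of this length 7.71% held TGANTCA, 11.5% held TATAAA and 5.91% held the NF-kB consensus. These are matches of letters, and the arrays do not tell which start was used.

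IL18 lay close to the negative control percentile. It was at 8.33, 8.40, 7.80 and 8.20 in BORA tumours and at 7.67, 8.20, 9.56 and 8.38 in EV tumours. EV replicate 3, the tumour lowest in IL1A and IL1B, was the highest in IL18, and EV replicate 1 was dim. The log2 difference was -0.27 (SE 0.35) over 8 arrays and -0.53 (SE 0.30) without EV replicate 1, and it turned to 0.10 over 8 arrays without EV replicate 3. IL33 was dim on all 8 arrays, at 5.35, 6.25, 6.01 and 5.91 in BORA tumours and at 5.24, 5.95, 4.63 and 5.67 in EV tumours. Its log2 difference was 0.51 (SE 0.30) and 0.46 (SE 0.31) without EV replicate 1. The lowest IL33 value was also in EV replicate 3, but at levels near background nothing is read from that order.

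**Figure D1:**
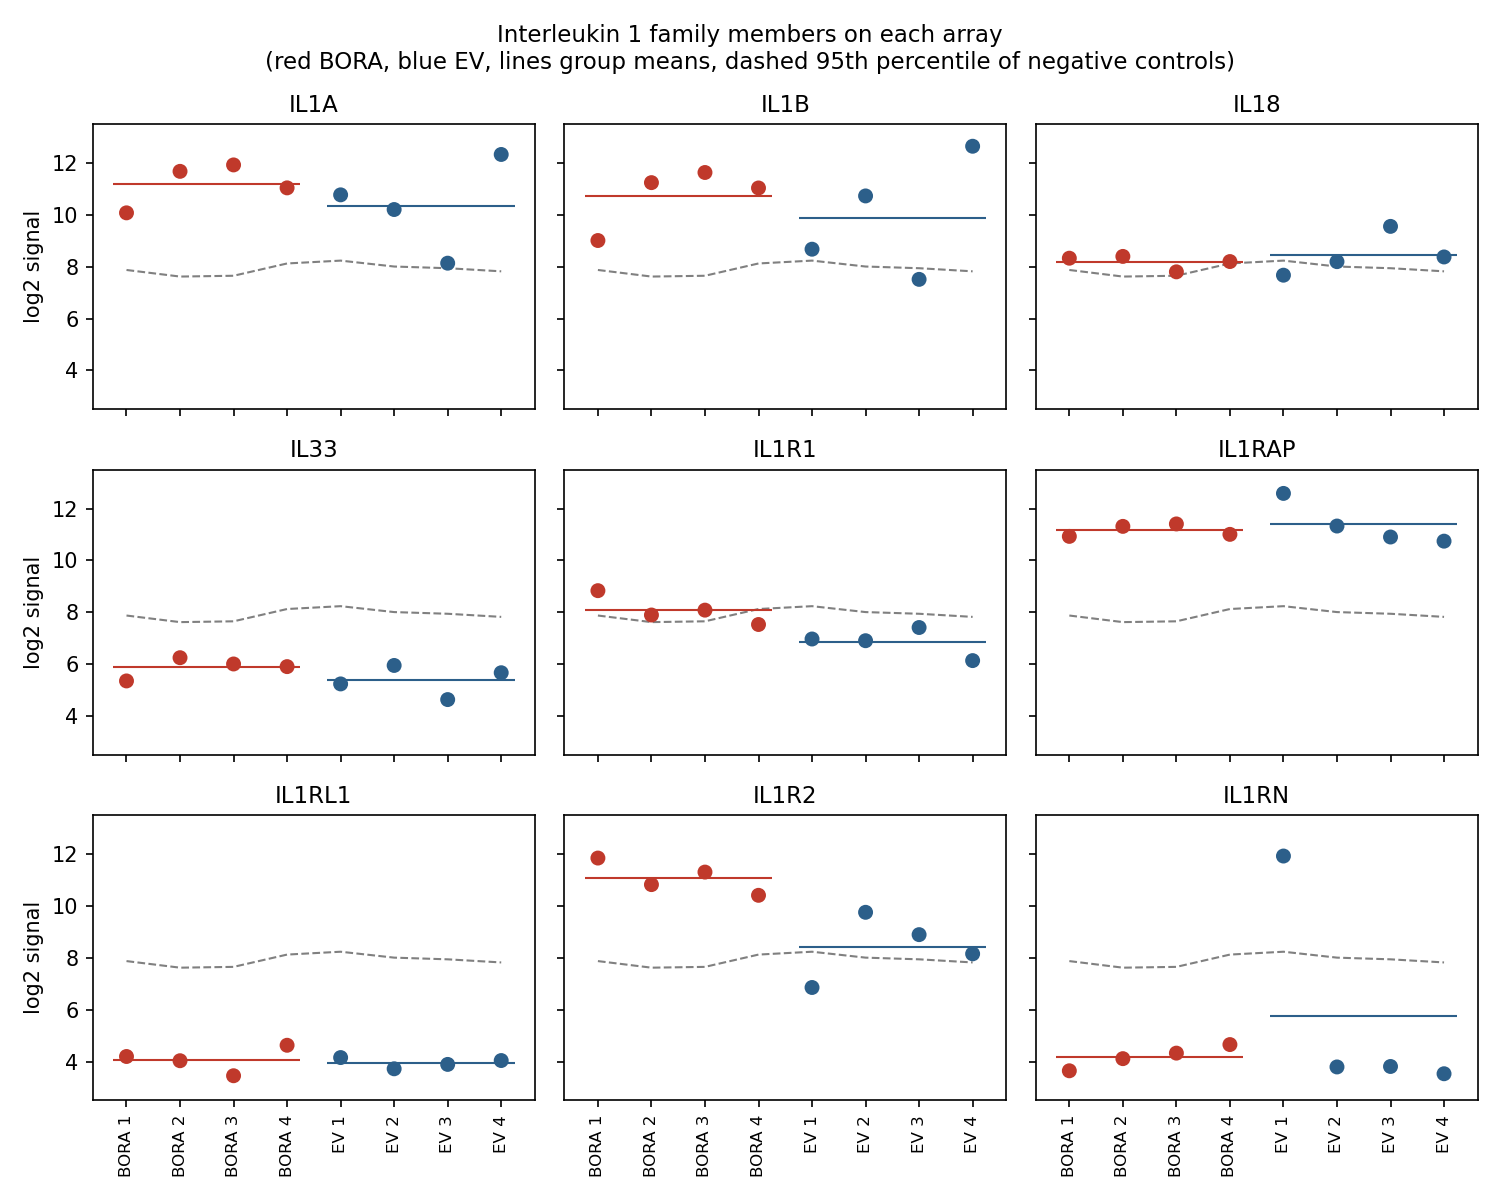
Log2 signal (y axis) of the 9 members on each of the 8 arrays (x axis), with BORA tumours in red and EV tumours in blue; horizontal lines are group means and the dashed line is the 95th percentile of the negative controls of each array. IL1R2 and IL1R1 are higher in every BORA tumour, IL1RN reaches 11.93 in EV replicate 1 and stays at 4.66 or below elsewhere, and IL1A and IL1B have the widest EV ranges after IL1RN.

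The decoy receptor IL1R2 had the largest difference among the members. It was at 11.85, 10.82, 11.31 and 10.41 in BORA tumours and at 6.86, 9.76, 8.90 and 8.16 in EV tumours. The groups did not overlap: the lowest BORA tumour lay 0.65 above the highest EV tumour. The means were 11.10 ± 0.62 and 8.42 ± 1.23 (SD, n = 4 each), a log2 difference of 2.68 (SE 0.56) or 6.41-fold. EV replicate 1 was dim and the lowest of all, and without it the difference was 2.16 (SE 0.39), or 4.48-fold, with an EV mean of 8.94 ± 0.80 (SD, n = 3). Across every array left out in turn it stayed between 2.16 and 3.13 over 8 arrays, and between 1.77 and 2.57 over 7.

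The signalling receptor IL1R1 was also higher in each BORA tumour. It was at 8.83, 7.89, 8.08 and 7.53 in BORA tumours and at 6.97, 6.90, 7.41 and 6.14 in EV tumours. It was dim in all 4 EV tumours and in BORA replicate 4, so its EV level is near background and the size of its difference is uncertain. The log2 difference was 1.23 (SE 0.33) over 8 arrays and 1.27 (SE 0.33) over 7, and the gap between the lowest BORA and the highest EV tumour was 0.12. BORA replicate 1 was the highest of all tumours in IL1R2 and in IL1R1, while it was the lowest BORA tumour in IL1A and IL1B.

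The window at the second listed start of IL1R2 is shown since this gene differed most; it held TATAAA at base -30 (in capitals) and no TGANTCA. The other listed IL1R2 start held neither motif.
IL1R2, chr2:101991710-101992009, plus strand: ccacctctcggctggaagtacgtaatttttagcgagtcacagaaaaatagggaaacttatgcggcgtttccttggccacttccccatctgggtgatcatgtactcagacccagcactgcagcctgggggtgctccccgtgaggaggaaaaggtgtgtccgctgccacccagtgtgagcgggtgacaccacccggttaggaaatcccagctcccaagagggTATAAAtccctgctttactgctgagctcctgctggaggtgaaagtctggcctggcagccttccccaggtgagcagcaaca

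The accessory chain IL1RAP exceeded the negative control percentile on all 8 arrays and varied little apart from EV replicate 1. It was at 10.93, 11.31, 11.41 and 11.01 in BORA tumours and at 12.58, 11.33, 10.90 and 10.74 in EV tumours. EV replicate 1 was the highest tumour, and the log2 difference was -0.23 (SE 0.36) with it and 0.17 (SE 0.20) without it. The IL33 receptor IL1RL1 was dim on all 8 arrays, between 3.45 and 4.63 in BORA tumours and between 3.72 and 4.16 in EV tumours. Its log2 difference was 0.13 (SE 0.24) and 0.19 (SE 0.25), and -0.06 without BORA replicate 4 over 8 arrays.

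The receptor antagonist IL1RN exceeded the negative control percentile in a single tumour. It was at 11.93 in EV replicate 1, against 3.79, 3.81 and 3.53 in EV replicates 2 to 4 and 3.64, 4.11, 4.33 and 4.66 in BORA replicates 1 to 4, all 7 of them dim. The log2 difference of -1.58 (SE 1.64) over 8 arrays came from that array and was 0.47 (SE 0.23) without it. The squamous list had a mean log2 level of 12.66 in EV replicate 1, 5.37 to 5.65 in EV replicates 2 to 4 and 5.09 to 5.43 in the BORA group. On the log2 scale its summed signal was 18.64 in EV replicate 1, 13.15 to 14.03 in EV replicates 2 to 4 and 12.89 to 15.04 in the BORA group. S100A8, DSG3 and SPRR3 were at 15.03, 15.01 and 13.93 there, while IVL and LORICRIN were dim on every array. The part of squamous tissue in the IL1RN and IL1RAP values of EV replicate 1 was not tested.

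**Figure D2:**
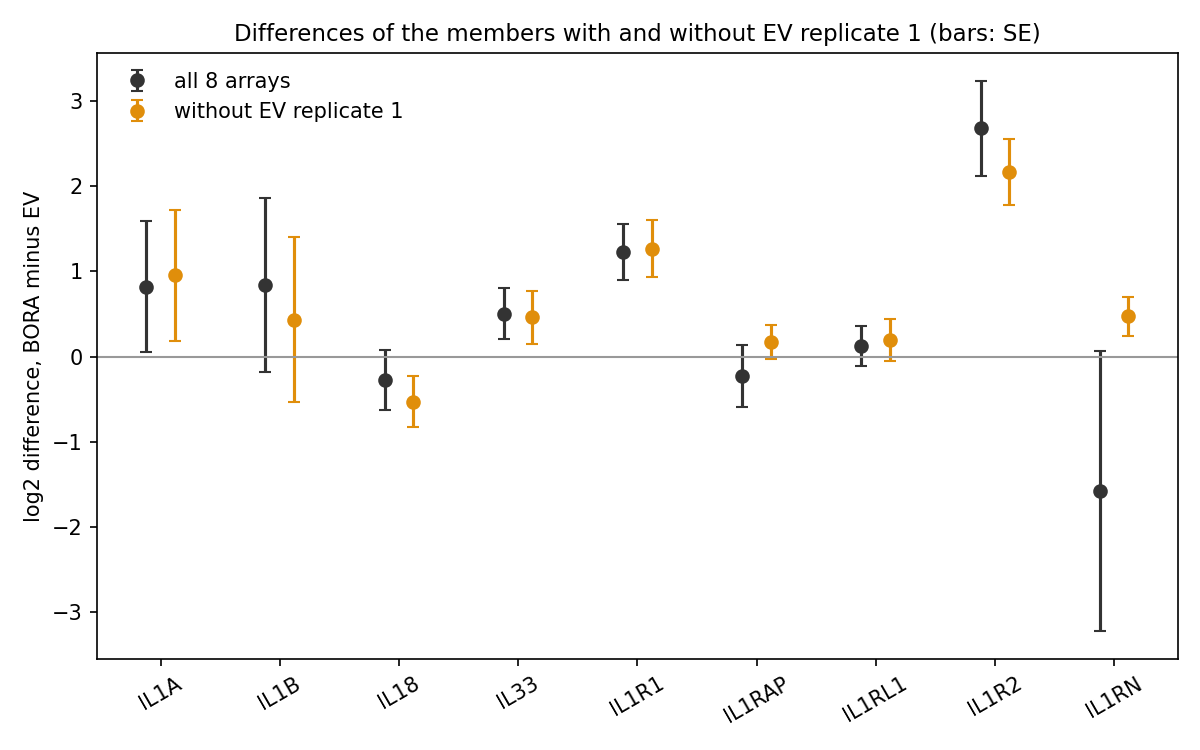
Log2 difference, BORA minus EV (y axis), of the 9 members (x axis) over all 8 arrays (black) and without EV replicate 1 (orange); bars are SEs from the fit. IL1R2 and IL1R1 keep differences above 1 in both, while IL1RN goes from -1.58 to 0.47 and IL1RAP from -0.23 to 0.17.

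Of the 9 members, 6 had a difference above 0 over 8 arrays, with a median of 0.51, where 46.6% of all clusters lay above 0 and their median was -0.03. Without EV replicate 1 it was 8 of 9, the exception being IL18, with a median of 0.46, where 46.1% of all clusters lay above 0. The groups did not overlap at 2 of 9 members over 8 arrays, both higher in BORA tumours, beside 4.45% of all clusters in that direction, and at 0 members in the other, beside 4.91%. Over 7 arrays it was again 2 and 0 members, beside 6.66% and 7.68%. In the limma fit over all clusters, called at a Benjamini-Hochberg adjusted p under 0.05, 0 of 9 members passed over 8 arrays, where 0.102% of all clusters did (0.102% higher and 0% lower). Over 7 arrays 1 of 9 (IL1R2, adjusted p = 0.0458) passed, where 0.514% did (0.435% higher and 0.0791% lower). Of the 7 further arrays, left out in turn, 6 ended that IL1R2 call. Quantile normalization, an intensity trend with robust fitting, array weights and the use of all rows of the table ended it too. A replicate block, median centring and leaving out dim clusters kept it. With the block BORA replicate 1 has no EV array of its number, and the IL1R2 difference was 1.91, as without that array. At an unadjusted p under 0.05, IL1R2 and IL1R1 were higher over 8 and over 7 arrays, beside 7.37% and 7.70% of all clusters. As the members were chosen on this contrast, nothing is read from these counts.

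Most family genes lie at 2 places on chromosome 2, and their differences are given in gene order (RefSeq, GRCh38.p14). The receptor locus runs IL1R2, IL1R1, IL1RL2, IL1RL1, IL18R1, IL18RAP. IL1R2 and its neighbour IL1R1 were at 2.68 and 1.23 on the log2 difference scale over 8 arrays, and the next genes, IL1RL2 (the interleukin 36 receptor), IL1RL1, IL18R1 and IL18RAP (the interleukin 18 receptor chains), at -0.31, 0.13, 0.16 and 0.09. Those 4 were dim on every array, so their differences are between levels near background, and that of IL18R1 was -0.05 without EV replicate 1. The ligand locus runs IL1A, IL1B, IL37, IL36G, IL36A, IL36B, IL36RN, IL1F10, IL1RN. Between IL1B and IL1RN the 6 genes were dim on all 8 arrays, with differences between -0.67 (IL36G) and 0.07 (IL37). Without EV replicate 1 that of IL36G was -0.36, that of IL37 0.00 and that of IL36B went from -0.41 to 0.01.

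**Figure D3:**
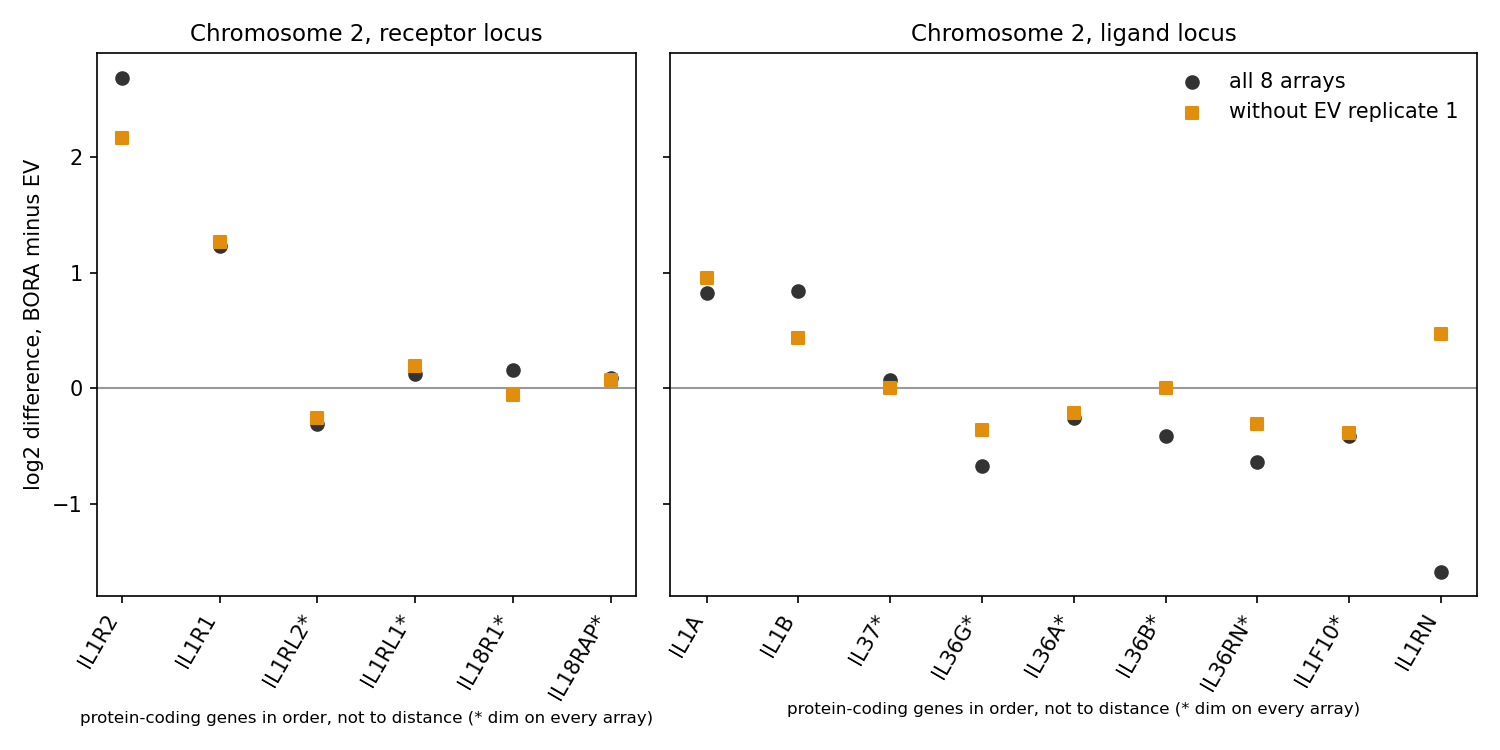
Log2 difference, BORA minus EV (y axis), for protein-coding genes in their order along the receptor locus (left) and the ligand locus (right) on chromosome 2 (x axis, order only), over 8 arrays (black circles) and without EV replicate 1 (orange squares). IL1R2 and IL1R1 stand above the other 4 receptor genes, which are dim on every array (asterisks).

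The other ligands, antagonists and receptors of the family numbered 13, all measured. Over 8 arrays 0 passed in either direction in limma, while 1 was higher and 2 were lower at p under 0.05 before adjustment. Over 7 arrays 0 passed, with 1 higher and 0 lower. Of all 17709 clusters 1305 were higher and 1269 lower before adjustment over 8 arrays, and 1363 and 1350 over 7. The median log2 difference of the 13 genes was -0.17 over 8 arrays. IL18BP, a secreted trap for interleukin 18, was at 0.88 (SE 0.31, limma adjusted p = 0.273), with 8.94 to 9.63 in BORA tumours and 7.70 to 9.09 in EV tumours. IL1F10 was at -0.41 (adjusted p = 0.288), IL36G at -0.67 (0.326) and the interleukin 36 antagonist IL36RN at -0.64 (0.372), all dim on every array. Without EV replicate 1 IL36G was at -0.36 and IL36RN at -0.30. SIGIRR, an inhibitory receptor of the family, exceeded the negative control percentile on all 8 arrays and was at -0.17.

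No receptor-proximal signalling gene passed the test. Of 16 genes 12 were measured, and 0 passed in limma in either direction over 8 or 7 arrays, nor did any reach an unadjusted p under 0.05. Their median log2 difference was 0.03. IRAK2, a kinase of the MYD88 complex that interleukin 1 itself induces, was at 7.34, 9.75, 10.10 and 8.92 in BORA tumours and at 6.75, 8.52, 7.20 and 8.83 in EV tumours. Its log2 difference was 1.20 (SE 0.64, limma adjusted p = 0.420) over 8 arrays and 0.85 (SE 0.58) over 7, and BORA replicate 1 was again the lowest of its group. TAB2, an adaptor of the TAK1 kinase, was at 0.30 (adjusted p = 0.355), the ubiquitin ligase PELI1 at -0.56 (0.496) and the kinase CHUK, dim on every array, at 0.25 (0.508). PELI1 was at 10.57 in EV replicate 1 and between 8.88 and 9.17 in the other EV tumours, and without that array its difference was -0.16. The adaptor MYD88 was dim on every array.

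Genes of the inflammasome, caspases and processing proteases numbered 16, of which 15 were measured. In limma 0 passed in either direction over 8 arrays, while 3 were higher and 2 were lower at p under 0.05 before adjustment. Over 7 arrays 0 passed, with 2 higher and 0 lower. Of all 17709 clusters 1305 were higher and 1269 lower before adjustment over 8 arrays, and 1363 and 1350 over 7. The median difference of the 15 genes was -0.20 over 8 arrays and -0.11 over 7. CASP4, an inflammatory caspase, was at 9.82, 9.72, 10.08 and 9.87 in BORA tumours and at 9.35, 9.35, 8.29 and 9.42 in EV tumours, without overlap (log2 difference 0.77, SE 0.25, adjusted p = 0.244). MEFV was at 0.54 (adjusted p = 0.185), NLRC4 at -0.38 (0.293) and the caspase-1 inhibitor CARD18 at -0.38 (0.325), all dim on every array. Over 8 arrays 2 of the 15 genes (CASP4 and MEFV) were higher without overlap, beside 4.45% of all clusters. In the other direction 3 of the 15 (NLRP3, NLRC4 and CARD18) did not overlap, beside 4.91%. CASP1, the enzyme that cleaves IL1B and IL18, was dim on every array, as were its activators NLRP3, AIM2 and PYCARD. The calpains CAPN1 and CAPN2, of the protease family that cleaves IL1A, exceeded the percentile on all 8 arrays, with differences of 0.15 and -0.41 over 8 arrays and 0.32 and -0.25 over 7.

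Among the 4 pathway lists, genes known to respond to interleukin 1 had the largest median difference in size. They also respond to other signals, and the list was compiled with earlier results of these data known. Of 23 genes 20 were measured, 15 of them with a log2 difference above 0 over 8 arrays, beside 46.6% of all clusters. The median log2 difference of the 20 was 1.21 over 8 arrays and 1.02 over 7. In limma 0 of 20 passed over 8 arrays, while 11 were higher and 0 were lower at p under 0.05 before adjustment. Of all 17709 clusters 1305 (7.37%) were higher and 1269 lower at that p. Over 7 arrays 2 rose, 0 fell and 18 did not pass, where 0.435% of all clusters rose and 0.0791% fell. The 2 were the collagenase genes MMP1 (log2 difference 3.35, SE 0.49, limma adjusted p = 0.0173) and MMP13 (5.50, SE 0.68, adjusted p = 0.00998). Over 8 arrays their differences were 3.997 (SE 0.71, adjusted p = 0.0994) and 4.59 (SE 0.99, adjusted p = 0.137). Over 7 arrays an intensity trend with robust fitting ended both calls, and leaving out BORA replicate 2 or 4 as well ended that of MMP1.

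CXCL8, the main neutrophil chemokine gene, was at 10.81, 14.44, 15.10 and 13.56 in BORA tumours and at 9.02, 10.79, 9.96 and 11.32 in EV tumours. Its log2 difference was 3.21 (SE 0.86, limma adjusted p = 0.188) over 8 arrays and 2.79 over 7 (adjusted p = 0.138). CXCL2 was at 1.47 (adjusted p = 0.187), CCL2 at 1.58 (0.222) and CXCL3 at 1.41 (0.229), CXCL3 and CXCL2 without overlap between groups. All 3 were dim in every EV tumour, and they exceeded the percentile on 2, 1 and 2 of the 4 BORA arrays, so these differences are measured against levels near background. Of the 20 responsive genes 5 were higher and 0 lower without overlap over 8 arrays, beside 4.45% and 4.91% of all clusters. In CXCL8 BORA replicate 1 lay inside the EV range and the other 3 BORA tumours lay above it.

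BORA replicate 1 was the lowest of the 4 BORA tumours at 15 of the 20 responsive genes (75%), against 25% of all clusters. The mean of the 20 genes, each minus its own mean over the 8 arrays, was -0.34 in BORA replicate 1, 1.14, 1.39 and 0.69 in BORA replicates 2 to 4, and -0.995, -0.35, -0.96 and -0.57 in EV replicates 1 to 4. Within the BORA group IL1A and IL1B had the same order, with replicate 1 lowest, then 4, 2 and 3. In EV tumours the orders differed. EV replicate 4, the highest of all arrays in IL1A and IL1B, was at -0.57 in the responsive mean, below EV replicate 2 at -0.35. Both values are set against a mean over 8 arrays that the BORA tumours enter too. EV replicate 4 was the highest EV tumour at 9 of the 20 responsive genes (45%), against 26.5% of all clusters. The count of responsive genes called over 7 arrays was 5 without BORA replicate 1, in a fit where 59 of 17709 clusters rose. As that array was the lowest of its group at most of these genes, nothing is read from that count.

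**Figure D4:**
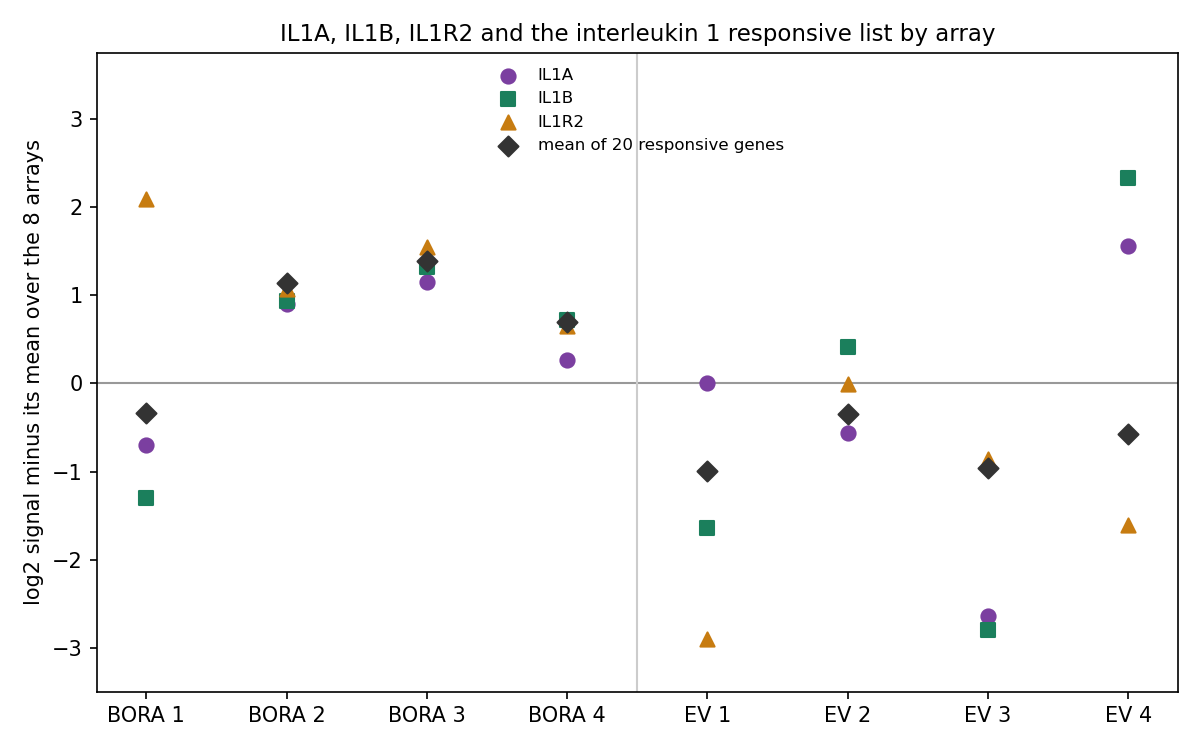
Log2 signal minus its mean over the 8 arrays (y axis) for IL1A, IL1B, IL1R2 and the mean of the 20 measured responsive genes on each array (x axis). The responsive mean is 0.69 to 1.39 in BORA replicates 2 to 4 and between -0.995 and -0.34 elsewhere, whereas IL1A and IL1B are highest in EV replicate 4 and IL1R2 is highest in BORA replicate 1.

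Markers of cells that could carry these transcripts were set beside them. IL1B and IL1R2 are typical of myeloid cells. Of 12 leukocyte markers, 2 or 3 exceeded the percentile in BORA tumours and 1 to 4 in EV tumours, and 8 (CSF3R, MPO, FCGR3B, CD14, ITGAM, CSF1R, AIF1 and LYZ) were dim on every array. The summed leukocyte signal was 11.73 to 12.34 on the log2 scale in BORA tumours and 11.17 to 13.27 in EV tumours. The median log2 difference of the 12 was -0.40 over 8 arrays, with 2 above 0. At limma p under 0.05 before adjustment 5 were lower and 0 higher, beside 1269 and 1305 of all 17709 clusters. Smallest in p were CD163 at -1.01 (limma adjusted p = 0.302), MPO at -0.595 (0.305), TYROBP at -0.45 (0.313) and ITGAM at -0.38 (0.341). CD163 exceeded the percentile on 1 array. PTPRC, the CD45 gene, was at 6.91 in EV replicate 1 and at 12.19 to 12.94 in the other EV tumours, against 9.68 to 10.96 in BORA tumours. Its log2 difference was -0.68 (limma adjusted p = 0.803) over 8 arrays, and it fell over 7 arrays (-2.07, limma adjusted p = 0.0194), a call that leaving out that array made. Of the 5 measured mast cell markers (KIT and CPA3 among them), 0 exceeded the percentile on any array, with summed signals of 6.53 to 7.23 and 6.80 to 7.07. Fibroblast markers had summed signals of 15.17 to 15.69 in BORA and 14.84 to 15.81 in EV tumours, 2 or 3 of 7 above the percentile on each array. Endothelial markers had summed signals of 10.31 to 11.09 and 8.99 to 9.56, and the median log2 difference of the 8 was -0.14 over 8 arrays. ERG rose (2.40, limma adjusted p = 0.0365), while CDH5 and PECAM1, dim in every EV tumour, were at 2.28 and 1.56 and did not pass. The other 5 (VWF, KDR, TEK, TIE1 and CLDN5) were dim on every array, with differences between -0.50 (CLDN5) and -0.06 (KDR). The part of these cells in the receptor values was not tested.

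The genes most like each member were those with the smallest root mean square difference of mean-centred log2 values over the 8 arrays. Members with an SD above 1 log2 unit were considered. For IL1R2 they were PTGIS, the prostacyclin synthase gene (0.37), GLIPR1 (0.51) and CFI, a complement inhibitor gene (0.51). PTGIS was at 12.43, 11.54, 12.49 and 11.51 in BORA tumours and at 7.56, 11.05, 9.59 and 8.20 in EV tumours, so EV replicates 1 and 4 were low and EV replicate 2 high, as in IL1R2. For IL1A they were SEMA6A (0.57), ANTXR1 (0.61) and the pseudogene LOC440895 (0.68). For IL1B they were SFRP1 (0.77), IL1A itself (0.78) and LOC440895 (0.91). For IL1RN they were SERPINB4 (0.18), SERPINB3 (0.38) and KRT13 (0.42), which were at 12.23, 13.32 and 12.34 in EV replicate 1 and at 5.01 or below in the other 7 tumours.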

How the data were processed

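A table of 1 value per probe set for each of 8 arrays was used. Per the submitters' processing notes, the authors made it with Affymetrix Expression Console; the version, background correction and normalization behind it were not given in the sources used here. No label states a log base, so the deposited values were taken to be log2 signals from where they lie, and folds are powers of 2 of log2 differences. The series text names the Human Gene 1.0 ST array, but the row identifiers and the supplied annotation belong to another Affymetrix design. That annotation names 17709 of 24351 rows, all matched to a RefSeq gene table.

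Without further normalization or filtering, limma (3.58.1, R 4.3.3; lmFit and eBayes) was fitted over all named clusters, with Benjamini-Hochberg adjustment. SDs are between arrays, and the number of arrays limits the precision. Members and lists were chosen with earlier results of these data known. All members were described, and of each pathway list the called genes and the 4 with the smallest p; SIGIRR, MYD88, CASP1, the calpains and other named genes were added after their values were seen. Alternatives were a replicate block, quantile normalization, median centring, an intensity trend with robust fitting, array weights, leaving out dim clusters, all rows of the table, and leaving out each array. When tested on simulated data of 8 arrays, the fit recovered 41.8% of 67 clusters shifted by 1 log2 unit and 88.1% of 67 shifted by 2. The simulated noise had equal spread in both groups and no outlying array, unlike these data. The fit called 157 clusters there and 18 in the data. These shares therefore do not tell how often a difference of that size would be found here.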

Additional observations from a re-analysis of the deposited data

Results flagged for a closer look

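IL1RN in EV tumours had 1 array far from the others. It was at 11.93 in EV replicate 1, and the gap to the nearest other EV tumour was 0.967 of the range of the group, above Dixon's 95% critical value for 4 samples. Among 20 groups of 4 checked (the members and the BORA transcript in each group) it was the only 1 past that value, and chance alone gives about 1 in 20.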

How the results depend on the processing

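Quantile normalization, median centring and the replicate block changed the sign of 0 of the 9 members' differences. The members' differences were not taken with array weights, so a change of sign there was not checked. In the settings where they were taken, every change of sign came from leaving out an array and is given with its value above. Over 8 arrays the 18 risen clusters became 1 with the replicate number as a block, 11 after quantile normalization, 43 with array weights and 9 without dim clusters, and 1 to 77 when an array was left out. The 0 fallen clusters became 1 with an intensity trend, 5 with array weights, 1 over all rows of the table and 0 to 14 when an array was left out. Over 7 arrays the 77 risen clusters became 46 after median centring, 34 without dim clusters, 40 over all rows, and 24 to 106 when an array was left out. The 14 fallen became 5 with the block, 28 with an intensity trend, 24 with array weights, 6 without dim clusters, 5 over all rows, and 1 to 46 when an array was left out. With the block 74 clusters rose over 7 arrays. Arrays with the same replicate number shared only a number: their deviations from the group means correlated at -0.11, 0.04, 0.07 and -0.02, and 1 of 8 arrays correlated best with its own number. The members called numbered 0 or 1 over 8 arrays and 0 or 1 over 7. The responsive genes called numbered 0 to 2 over 8 arrays and 0 to 5 over 7. The other 3 pathway lists had 0 called in every setting. IL33, IL1RL1 and, outside EV replicate 1, IL1RN lay below the negative control percentile, which limits what their differences show.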
